A study of Danio rerio with 2 samples.

Results

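The endocytosis receptors and adaptors described here are 6 genes, cubn (ENSDARG00000087013), amn (ENSDARG00000062947), dab2 (ENSDARG00000031761), lrp2a (ENSDARG00000102506), lrp2b (ENSDARG00000007906) and tmigd1 (ENSDARG00000007040), found by symbol among the 25432 genes counted in adult zebrafish intestine. Of these, 5 were concentrated in lysosome-rich enterocytes, the absorptive cells that take up whole protein from the gut lumen, and 1, lrp2a, was not. cubn encodes cubilin, a large peripheral receptor with no membrane anchor of its own. amn encodes amnionless, which anchors cubilin and carries it to the apical membrane. lrp2a and lrp2b encode paralogues of megalin, a multiligand receptor of the low density lipoprotein receptor family. dab2 encodes the adaptor that links the tails of these receptors to clathrin, and tmigd1 encodes an adhesion protein of the immunoglobulin superfamily found in mammalian epithelia. In this route, ligand bound by the receptors is drawn into clathrin-coated pits, passes through endosomes and is degraded in lysosomes while the receptors return to the surface. In zebrafish larvae, cubilin, amnionless and Dab2 are known to be needed for the uptake of luminal protein by lysosome-rich enterocytes.

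Single-cell RNA sequencing was performed on 1 WT library (TL strain, nod2+/+) and 1 nod2-/- library, each from the pooled whole intestines of 5 cohoused fish aged 6 months, 2 males and 3 females, from a cross of heterozygotes. The mutant allele is a germline frameshift deletion made by CRISPR-Cas9 in an early coding exon of nod2, an intracellular sensor of bacterial peptidoglycan. Intestines were dissociated by enzymes and mechanically, and dead cells were removed on a density gradient. Since each genotype is a single library, no difference between genotypes was tested, and the 95% exact intervals given throughout reflect counting error alone and leave out differences between fish.

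Transcripts were counted from their 3′ ends as unique molecular identifiers (UMIs). In WT, 34052268 UMIs were counted in 5891 cells, with a median depth of 3400. In nod2-/-, 22244173 were counted in 5599 cells, with a median depth of 1940. The 2 libraries shared 10 cell barcodes. UMIs of nod2 itself numbered 139 in WT and 75 in nod2-/- cells, but UMI counts do not show the deletion and so cannot check the genotype. Clustering without the 6 genes among the variable genes gave 28 clusters, of which 22 were named from marker genes as 11 classes. The 9 classes with at least 20 cells in each library were compared, which leaves out pancreatic acinar cells (261 WT and 15 nod2-/- cells) and hepatocytes (2 and 18).

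Lysosome-rich enterocytes comprised 569 WT and 726 nod2-/- cells, with medians of 5477 and 3026 UMIs per cell. They formed 2 clusters, and all 8 markers of the class, the bile acid binding protein fabp6, the bile acid transporter slc10a2, the lysosomal genes lgmn, ctsbb, ctsz, ifi30 and hexb, and the membrane protein pllp, counted as markers in both. They were 12.5% (11.6% to 13.5%) of WT and 18.1% (16.9% to 19.3%) of nod2-/- epithelial cells. Markers of absorptive enterocytes were also present in them, all 9 of 9 with a summed level of 5525 CPM (counts per 1000000 UMIs of the class) in WT and 5857 in nod2-/- cells, against 55068 and 54152 CPM for the lysosome-rich markers. The part of enterocyte RNA in the levels below was not tested.

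Of the 6 genes, 5 had most of their UMIs in lysosome-rich enterocytes. cubn had 3907 of its 4085 WT UMIs there (95.6%) and 4395 of its 4535 nod2-/- UMIs (96.9%). The corresponding shares for amn were 91.4% in WT and 93.9% in nod2-/- cells. For dab2 they were 94.3% and 93.3%. The receptor lrp2b followed the same distribution, with 91.3% and 93.5% of its UMIs in the class. For tmigd1 the share was 92.8% in WT and lower, 88.7%, in nod2-/- cells. lrp2a departed from the others, with 11 of 55 WT UMIs and 6 of 38 nod2-/- UMIs in lysosome-rich enterocytes.

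In each library the level of these 5 genes was higher in lysosome-rich enterocytes than in any other class compared. The cubilin receptor cubn reached 713 CPM (691 to 736) in WT and 1152 CPM (1118 to 1186) in nod2-/- lysosome-rich enterocytes. Absorptive enterocytes, a neighbouring epithelial class with 2752 WT and 2350 nod2-/- cells, had 2.81 and 2.76 CPM of cubn. In BEST4 cells, a minor class of ion-transporting enterocytes, cubn was at 2.61 and 1.76 CPM. Its anchor amn was at 206 and 293 CPM in lysosome-rich enterocytes and at 0.826 and 1.06 CPM in absorptive enterocytes. In contrast to cubn, amn was also counted in BEST4 cells, at 15.7 CPM (30 UMIs in 27 WT cells) and 16.7 CPM (19 UMIs in 17 nod2-/- cells), with no more than 2 UMIs in any of these cells.

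The clathrin adaptor dab2 stood at 704 and 943 CPM in lysosome-rich enterocytes and at 3.25 and 2.93 CPM in absorptive enterocytes. The megalin paralogue lrp2b was counted at 1373 CPM in WT and 1825 CPM in nod2-/- lysosome-rich enterocytes. Outside the class lrp2b was highest in cycling cells, at 254 and 312 CPM, followed by enteroendocrine cells at 68.5 and 67.0 CPM. Of the enteroendocrine UMIs, 29 of 38 lay in 2 WT cells and 20 of 27 in 4 nod2-/- cells. The remaining enteroendocrine cells had 17.4 and 17.8 CPM of lrp2b. In BEST4 cells lrp2b was at 43.3 and 34.3 CPM, and in stromal cells at 7.34 CPM (1 UMI) and 51.2 CPM (14 UMIs). Progenitors had 15.9 and 22.6 CPM, and absorptive enterocytes 13.2 and 14.9 CPM. The adhesion gene tmigd1 was at 804 and 762 CPM in lysosome-rich enterocytes and at 5.39 and 9.84 CPM in absorptive enterocytes, the latter from 98 and 121 UMIs.

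**Figure D1:**
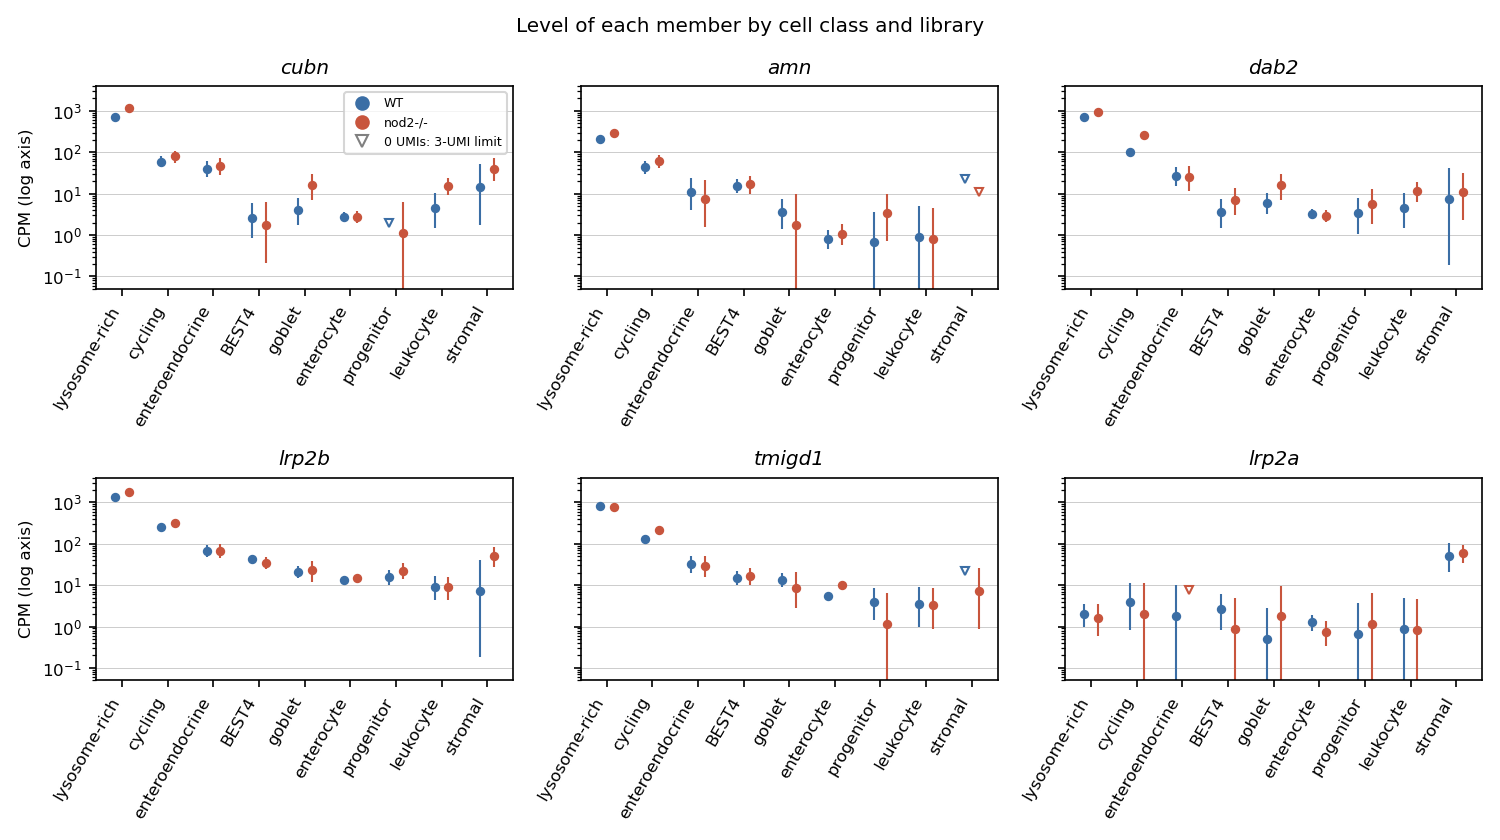
Level of each gene in CPM (log axis) in the 9 cell classes of the WT and nod2-/- libraries, with 95% Poisson intervals; open triangles mark classes with 0 UMIs, drawn at the level of 3 UMIs. For cubn the points lie at 713 and 1152 CPM in lysosome-rich enterocytes and at 2.81 and 2.76 CPM in enterocytes, while lrp2a is highest in stromal cells at 51.4 and 58.6 CPM.

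Of the 6 genes, cubn and lrp2b were at least 5-fold higher in lysosome-rich enterocytes than in every other class in both libraries, which is 2 of 6 against 0.246% of the 8534 genes with at least 20 UMIs in the class of each library (21 genes). lrp2a did not reach 20 UMIs. For cubn the fold over the next class was 11.9 (8.91 to 16.3) in WT and 14.5 (10.6 to 20.4) in nod2-/- cells. For lrp2b the folds were 5.41 (4.69 to 6.26) and 5.85 (4.98 to 6.91). dab2 passed this size in WT only, at 6.84 against 3.55 in nod2-/- cells. tmigd1 did likewise, at 6.05 in WT and 3.49 in nod2-/- cells. amn lay just below it in both libraries, at 4.65 and 4.79. These counts depended on the classes drawn, since all 5 passed at a clustering resolution of 0.4 and 1 of them passed at 1.2. The class marker fabp6 itself fell short of 5-fold over cycling cells. Its level there was 13786 CPM (WT) and 16549 CPM (nod2-/-), against 49542 and 44752 CPM in lysosome-rich enterocytes. At resolution 0.4 the next class was enteroendocrine or BEST4 cells, and the folds of the 5 genes ran from 13.2 to 38.0. Without clustering all 5 also passed, with cycling cells still next.

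For each of the 5 genes the next class was the cycling cells, and there a few cells carried nearly all the UMIs. The cycling cluster holds 57 WT and 59 nod2-/- cells, and its leading gene is the lysosome-rich marker fabp6, followed by the mitotic gene ube2c. In WT, 8 cells in which at least 3 of the 5 genes were detected held 45 of the 46 cubn UMIs, 34 of 34 amn UMIs and 75 of 79 dab2 UMIs. In nod2-/-, 9 such cells held 37 of 39 cubn, 28 of 30 amn and 128 of 130 dab2 UMIs, with 41 of the dab2 UMIs in 1 cell.

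The carriers held markers both of lysosome-rich enterocytes and of cycling cells. They were chosen by detection before thinning, which favours deep cells, and had a median of 27802 UMIs in WT and 16775 in nod2-/- cells, against 9328 and 4713 in the remaining cycling cells. Their summed lysosome-rich markers were at 47928 and 44327 CPM, close to the 55068 and 54152 CPM of lysosome-rich enterocytes, and at 493 and 767 CPM in the remaining cells. Their summed cycling markers, which include mki67, top2a and pcna, were at 615 and 716 CPM, against 596 and 1145 CPM in the remaining cells. Median doublet scores were 0.0468 and 0.0600 in the carriers and 0.0476 and 0.0613 in the remaining cells. Whether the carriers are single dividing cells or pairs of cells in 1 droplet was not tested.

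In the cycling class the dab2 level was 103 CPM in WT cells and 265 CPM in nod2-/- cells; the log2 ratio of 1.37 (0.95 to 1.79) rests on these few carriers. tmigd1 was at 133 and 218 CPM there.

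A similar concentration was seen in enteroendocrine cells, the third class for cubn. In 1 cell were 20 of the 22 WT UMIs of cubn. In nod2-/- enteroendocrine cells, 4 carriers of 165 cells held 18 of 19 cubn UMIs. Here the summed enteroendocrine markers were lower in the carriers, at 291 and 466 CPM, than in the remaining cells, at 1543 and 2026 CPM. The summed lysosome-rich markers of these carriers were at 32163 and 40432 CPM. Their median doublet scores were 0.0991 in 2 WT cells and 0.0947 in 4 nod2-/- cells, against 0.0621 and 0.0494 in the remaining enteroendocrine cells. Whether these carriers are pairs of cells in 1 droplet was not tested.

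lrp2a was barely detected in lysosome-rich enterocytes, with 11 WT UMIs (2.01 CPM, 1.0 to 3.59) and 6 nod2-/- UMIs (1.57 CPM, 0.577 to 3.42). Its highest level was in stromal cells, where 7 WT UMIs among 78 cells gave 51.4 CPM (20.7 to 106) and 16 nod2-/- UMIs among 194 cells gave 58.6 CPM (33.5 to 95.1). The level in lysosome-rich enterocytes was 0.0391 of the stromal level in WT and 0.0268 of it in nod2-/- cells. The leading genes of this stromal cluster are krt15, the fibronectin gene fn1b, c6, podxl and rbp4. In all other classes lrp2a was below 4 CPM in both libraries. Enterocytes held the most WT UMIs of lrp2a, 23 of 55, but at 1.27 CPM. The 2 megalin paralogues thus had their highest levels in different classes. They were not apart in every cell, since both thinned WT lysosome-rich cells with lrp2a also had lrp2b. Stromal cells of the nod2-/- library held 14 UMIs of lrp2b (51.2 CPM, in 7 cells). Of these, 8 were in 1 cell, which also held 10 of the 11 cubn UMIs of the class. Without that cell lrp2b was at 22.2 CPM. Whether stromal cells with lrp2a also held lrp2b was not tested. Loss of reads shared by the paralogues was not tested.

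Within lysosome-rich enterocytes the 5 genes were unevenly distributed over the 2 clusters. Cluster 5 (353 WT and 423 nod2-/- cells) is led by fabp6, and cluster 8 (216 and 303 cells) by the cathepsin gene ctsl.1. Cluster 8 made up 38.0% of the WT and 41.7% of the nod2-/- cells of the class. Summed enterocyte markers were higher in cluster 5 (WT 6675 CPM, nod2-/- 7284 CPM) than in cluster 8 (2774 and 2762 CPM). Summed lysosome-rich markers were lower in cluster 5 (47629 and 47221 CPM) than in cluster 8 (72876 and 69182 CPM). The part of enterocyte RNA in the gradients between the clusters was not tested. cubn was at 241 CPM in cluster 5 and 1844 CPM in cluster 8 of the WT library, a fold of 7.65 (7.11 to 8.25). In nod2-/- cells it was at 408 and 2764 CPM, a fold of 6.77 (6.32 to 7.26). Over cells of all depths the cubn gradient was thus of a size with those of the lysosomal markers lgmn (8.31 and 9.19) and ctsbb (5.80 and 6.92). The cubn gradient was shallower in cells of low depth. In WT cells of 500 to 2000 UMIs cubn was at 994 CPM in cluster 5 and 3779 CPM in cluster 8. In cells of 2000 to 8000 UMIs it was at 428 and 2865 CPM, and in deeper cells at 190 and 1239 CPM. The marker folds were not split by depth.

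lrp2b was 3.4-fold higher in cluster 8 than in cluster 5 in WT and 3.48-fold higher in nod2-/- cells. dab2 was 3.0-fold and 2.52-fold higher. amn was 2.72-fold and 3.06-fold higher, so that cubilin and its anchor differed in the steepness of this gradient. tmigd1 hardly followed the gradient, with 740 CPM in cluster 5 and 957 CPM in cluster 8 of the WT library (fold 1.29, 1.21 to 1.38) and 704 and 888 CPM in nod2-/- cells (fold 1.26, 1.17 to 1.36). In this, tmigd1 was near the bile acid genes slc10a2 (1.16 and 1.14) and fabp6 (1.33 and 1.09). By depth, tmigd1 in nod2-/- cells of 500 to 2000 UMIs was at 980 CPM in cluster 5 and 655 CPM in cluster 8. At 2000 to 8000 UMIs it was at 747 and 1034 CPM, and in deeper cells at 657 and 610 CPM. In WT it was at 492 and 439 CPM at 500 to 2000 UMIs, and higher in cluster 8 in the other ranges.

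**Figure D2:**
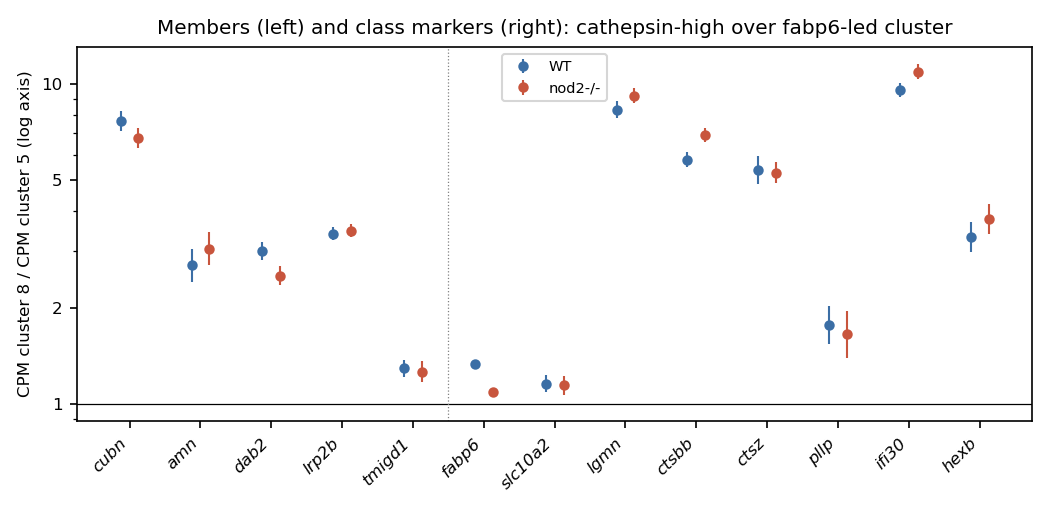
Ratio of CPM in cluster 8 to CPM in cluster 5 (log axis) for 5 of the 6 genes, left of the dotted line, and for the 8 class markers, right of it, in the WT and nod2-/- libraries with 95% exact intervals. cubn sits at 7.65 and 6.77 beside lgmn and ctsbb, and tmigd1 at 1.29 and 1.26 beside slc10a2 and fabp6.

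Counts in single cells showed the same order. In cluster 8, 0.926% of WT and 0.660% of nod2-/- cells had no cubn UMI, with medians of 11 and 9 cubn UMIs per cell. In cluster 5, 45.3% and 44.9% of cells had none. For lrp2b, 0.926% and 0.330% of cluster 8 cells had no UMI, and the medians were 17 and 11. For tmigd1 the share without a UMI was 10.2% and 18.2% in cluster 8 and 24.1% and 27.4% in cluster 5. Cells without a tmigd1 UMI were thus spread over both clusters, and those without a cubn UMI lay almost entirely in cluster 5.

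To compare detection at like depth, each cell was thinned to 1000 UMIs, which left 525 WT and 624 nod2-/- lysosome-rich enterocytes and left out 44 and 102. cubn was then detected in 50.1% (45.7% to 54.5%) of WT and 59.3% (55.3% to 63.2%) of nod2-/- cells. amn was detected in 19.8% and 25.2%, and dab2 in 47.4% and 61.2%. lrp2b was detected in 63.4% and 70.8%, and tmigd1 in 48.2% and 51.0%. Before thinning, the shares for cubn were 71.5% and 73.6%, at median depths of 5477 and 3026 UMIs. In goblet cells, mucus-secreting cells that should lack the route, the thinned shares were 0.593% in WT and 1.04% in nod2-/- cells for each of cubn, amn, dab2 and tmigd1, and 2.37% and 4.17% for lrp2b (median depths 3860 and 2390 UMIs). Detection of these 5 genes in lysosome-rich enterocytes was well above that background.

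The receptor and adaptor genes were detected together more often than their separate shares give. cubn and lrp2b were both detected in 226 of the 525 WT cells, where the product of their shares gives 167. In nod2-/- cells they were detected together in 330 of 624 cells, where 262 were given. The odds ratio of this pair was 8.81 (5.67 to 13.9) in WT and 10.4 (6.81 to 16.2) in nod2-/- cells, the highest of the 10 pairs of the 5 genes in each library. Part of this follows the 2 clusters, and the odds ratio within clusters was 4.85 and 4.63. Over the 10 pairs the median odds ratio was 2.43 in WT and 2.94 in nod2-/- cells, which includes the difference between the 2 clusters.

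cubn with its anchor amn had an odds ratio of 3.02 (1.86 to 5.0) in WT and 3.71 (2.37 to 5.92) in nod2-/- cells, and of 1.67 and 1.5 within clusters. cubn with the adaptor dab2 had 3.68 and 4.09, and dab2 with lrp2b had 3.34 and 3.35. Within clusters these pairs had 1.99 and 2.05, and 1.92 and 1.75. For amn with lrp2b the odds ratio was 2.07 and 3.89 over the class and 1.12 and 1.80 within clusters. tmigd1 was the exception among the 5, with odds ratios of 1.2 to 1.42 for its 4 pairs in WT and of 0.704 to 1.41 in nod2-/- cells, all with intervals that include 1. For these 4 pairs the odds ratio within clusters was 0.998 to 1.19 in WT cells. In nod2-/- cells it ran from 0.597 with lrp2b to 1.40 with amn. The values depended on the depth of thinning. With cells thinned to 2000 UMIs, the lowest odds ratio of any pair of the 5 genes was 0.979 in WT and 1.23 in nod2-/- cells. At the depth used here, detection of tmigd1 thus had little relation to that of the receptors over the class. Over the thinned cells, which share library and depth, Pearson's r of log2(UMIs + 1) was 0.64 in WT and 0.63 in nod2-/- cells for cubn with lrp2b, 0.07 and 0.02 for cubn with tmigd1, and -0.20 and -0.15 for cubn with fabp6 (525 and 624 cells, Spearman's rho 0.63 and 0.64, 0.08 and 0.03, and -0.19 and -0.15).

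**Figure D3:**
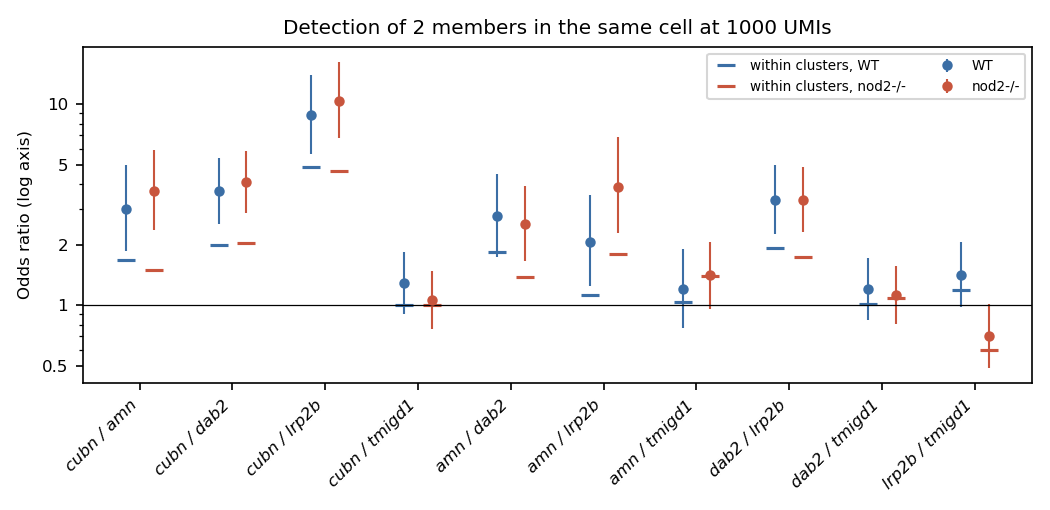
Odds ratio (log axis) for detection of 2 genes in the same lysosome-rich enterocyte thinned to 1000 UMIs, for the 10 pairs in the WT and nod2-/- libraries with 95% exact intervals; short lines give the odds ratio within clusters. The cubn and lrp2b pair is highest at 8.81 and 10.4, and the 4 pairs with tmigd1 lie between 0.704 and 1.42.

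At least 3 of the 5 genes were detected in 44.0% (39.7% to 48.4%) of WT and 55.8% (51.8% to 59.7%) of nod2-/- lysosome-rich enterocytes at 1000 UMIs. In cluster 8 the shares were 76.4% and 87.2%, and in cluster 5 they were 21.4% and 28.4%. Among all other cells of the intestine they were 0.161% (7 of 4350 WT cells) and 0.231% (8 of 3470 nod2-/- cells). Read the other way, 231 of the 238 WT cells with at least 3 of the genes (97.1%) and 348 of the 356 nod2-/- cells (97.8%) were lysosome-rich enterocytes. Joint detection of at least 3 of the genes was thus nearly confined to the class. It did not extend to the whole class, and was more frequent in cluster 8 than in cluster 5.

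**Figure D4:**
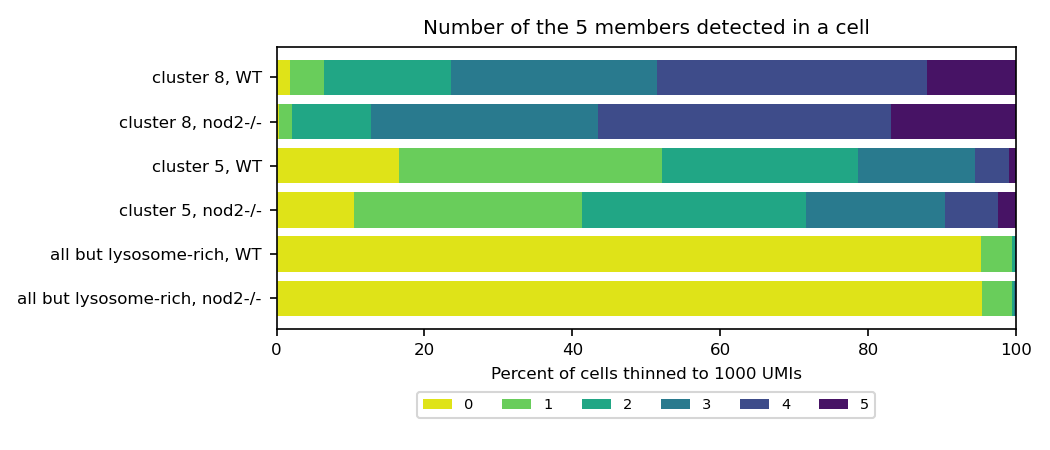
Percent of cells, thinned to 1000 UMIs, in which 0 to 5 of cubn, amn, dab2, lrp2b and tmigd1 were detected, for the 2 lysosome-rich clusters and for all other cells of each library. At least 3 genes were detected in 76.4% and 87.2% of cluster 8, in 21.4% and 28.4% of cluster 5, and in 0.161% and 0.231% of other cells.

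The genotypes were compared next, within lysosome-rich enterocytes. Of the 5 genes with at least 20 UMIs, cubn alone was at least 1.5-fold higher in nod2-/- than in WT cells, and none was 1.5-fold lower. Over all 11331 genes with that many UMIs, 9.06% were at least 1.5-fold higher and 12.7% at least 1.5-fold lower, and the median log2 ratio was -0.03. The median over the 5 genes was 0.42. cubn went from 713 to 1152 CPM, a log2 ratio of 0.69 (0.63 to 0.75). amn went from 206 to 293 CPM (log2 ratio 0.51, 0.39 to 0.63). dab2 and lrp2b had log2 ratios of 0.42 (0.35 to 0.49) and 0.41 (0.36 to 0.46). tmigd1 had a log2 ratio of -0.08 (-0.14 to -0.01), and lrp2a one of -0.35 with an interval of -2.07 to 1.21.

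Over all cells of the class the intervals thus lay above 0 for cubn, amn, dab2 and lrp2b, just below 0 for tmigd1, and on both sides of 0 for lrp2a. Ratios of 1 gene to another, which do not depend on the total UMIs of the class, were also compared over these cells. UMIs of cubn per UMI of tmigd1 were 0.888 in WT and 1.51 in nod2-/- lysosome-rich enterocytes, a change of 1.70-fold (1.6 to 1.82). UMIs of dab2 per UMI of lrp2b were 0.513 and 0.516, a change of 1.01-fold (0.952 to 1.07). The change of cubn against tmigd1 was not alike at each depth. Their log2 ratios of nod2-/- to WT were 0.20 and 0.85 in cells of 500 to 2000 UMIs. They were 0.05 and -0.15 in cells of 2000 to 8000 UMIs, and 0.43 and -0.24 in cells of 8000 and more. The log2 ratios of dab2 and lrp2b were near each other in the shallowest and deepest ranges, at 0.13 and 0.21, and 0.31 and 0.29. In cells of 2000 to 8000 UMIs they were apart, at 0.21 (0.10 to 0.32) and -0.10 (-0.17 to -0.03). The lysosomal markers ctsz, ctsbb, lgmn, hexb and ifi30 had log2 ratios of 1.34, 1.09, 1.08, 0.59 and 0.44 over all cells of the class. The bile acid genes slc10a2 and fabp6 had 0.29 and -0.15, and pllp had -0.09 (-0.25 to 0.07).

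The differences depended on the depth of the cells compared, in ranges chosen after the data were seen. Cells of 8000 and more UMIs supplied 78.3% of the UMIs of WT lysosome-rich enterocytes and 53.1% of those of nod2-/- cells, and cubn was lowest in these cells, at 443 and 596 CPM. Among the 246 WT and 366 nod2-/- cells of 2000 to 8000 UMIs, cubn was at 1684 and 1739 CPM, a log2 ratio of 0.05 (-0.04 to 0.13). In the same cells lrp2b was at 2544 and 2377 CPM (log2 ratio -0.10, -0.17 to -0.03), opposite to the class as a whole. The higher levels of cubn and lrp2b in nod2-/- cells were thus not seen in this range. Among the 125 WT and 287 nod2-/- lysosome-rich enterocytes within the limits that the methods of the study word, 200 to 2500 UMIs and at most 25% mitochondrial UMIs, the log2 ratio was 0.02 for cubn, 0.65 for amn, 0.17 for dab2, 0.04 for lrp2b and 0.31 (0.014 to 0.62) for tmigd1, whose sign was turned.

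amn and dab2 kept a difference in that range, at log2 ratios of 0.48 (0.27 to 0.69) and 0.21 (0.10 to 0.32). In cells of 8000 and more UMIs (215 WT and 117 nod2-/-) the log2 ratio was 0.43 for cubn, 0.31 for amn, 0.31 for dab2 and 0.29 for lrp2b. In cells of 500 to 2000 UMIs (108 and 243) it was 0.20 (-0.03 to 0.43) for cubn, 1.06 for amn, 0.13 for dab2 and 0.21 for lrp2b. Cluster 8 made up 19.4% of WT and 30.9% of nod2-/- cells of this range. Within clusters 5 and 8 the log2 ratios were -0.02 and -0.02 for cubn, -0.34 and 0.25 for dab2, and -0.08 and 0.15 for lrp2b. Each of these within-cluster intervals included 0. tmigd1 had log2 ratios of 0.85, -0.15 and -0.24 from the shallowest to the deepest range. Over the whole class, amn was the 1 gene of the 5 whose log2 ratio was above 0 with its interval in all 3 ranges. Within clusters the log2 ratio of amn was above 0 in each range. Its interval included 0 in both clusters at 500 to 2000 UMIs and in cluster 5 at 2000 to 8000 UMIs.

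Clusters were also compared within the range of 2000 to 8000 UMIs. cubn in cluster 8 was at 2865 CPM in 131 WT cells and 2919 CPM in 203 nod2-/- cells, a log2 ratio of 0.03 (-0.07 to 0.12). amn in these cells was at 387 and 563 CPM (log2 ratio 0.54, 0.30 to 0.78). In cluster 5 amn had a log2 ratio of 0.27 (-0.17 to 0.71). dab2 had a log2 ratio of 0.54 (0.31 to 0.77) in cluster 5 and 0.10 (-0.03 to 0.23) in cluster 8. In deeper cells of cluster 8, cubn was at 1239 CPM in 64 WT cells and 2068 CPM in 25 nod2-/- cells. How depth, cell size and genotype each bear on these differences cannot be told apart with 1 library per genotype.

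**Figure D5:**
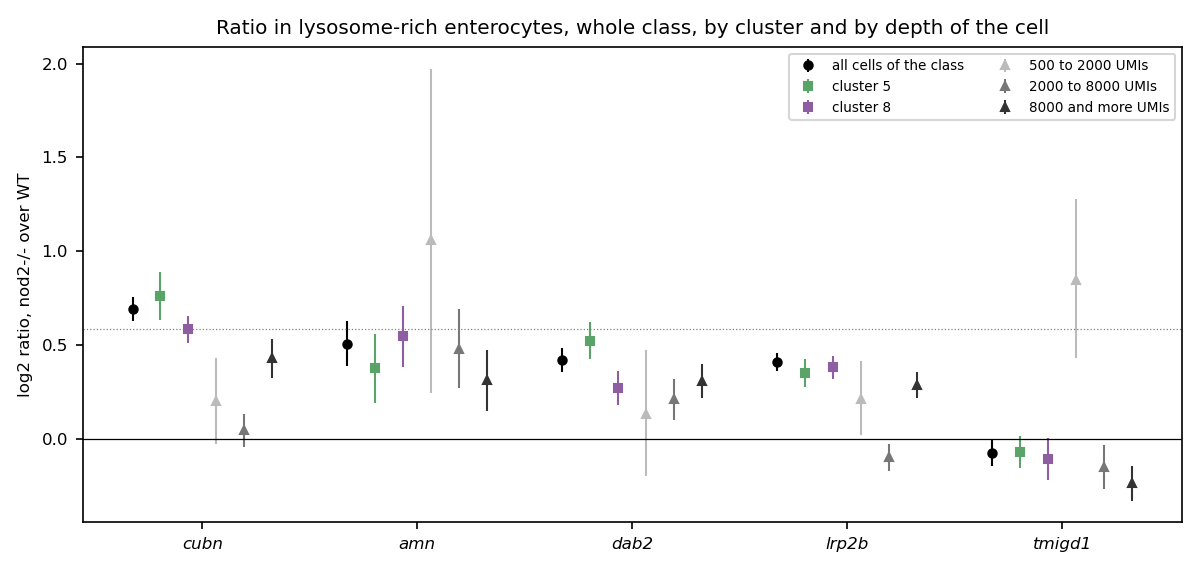
Log2 ratio of nod2-/- to WT levels in lysosome-rich enterocytes for 5 of the 6 genes, with 95% exact intervals, over all cells, in each cluster and in 3 ranges of UMIs per cell; the dotted line marks 1.5-fold. cubn lies at 0.69 over all cells and 0.05 in cells of 2000 to 8000 UMIs, where lrp2b lies at -0.10 and amn at 0.48.

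Joint detection was also compared within depth ranges. Among cells of 2000 to 8000 UMIs, thinned to 1000, at least 3 of the 5 genes were detected in 54.5% (48.0% to 60.8%) of WT and 61.7% (56.6% to 66.8%) of nod2-/- lysosome-rich enterocytes. In cluster 8 of this range the shares were 80.2% (72.3% to 86.6%) and 88.2% (82.9% to 92.3%), and in cluster 5 they were 25.2% and 28.8%. In cells of 8000 and more UMIs the shares differed more, at 30.7% and 39.3% of the class, 65.6% (52.7% to 77.1%) and 84.0% (63.9% to 95.5%) in cluster 8, and 15.9% (10.5% to 22.7%) and 27.2% (18.4% to 37.4%) in cluster 5. In cells of 1000 to 2000 UMIs they were 48.4% and 53.9% of the class, 85.7% and 85.5% in cluster 8, and 30.2% and 29.1% in cluster 5. The intervals of the 2 libraries overlapped in each of these comparisons within a range.

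Over all named epithelial classes together, the cubn level was 133 CPM in the WT and 230 CPM in the nod2-/- library (log2 ratio 0.79). The log2 ratio was 0.59 for amn, 0.54 for dab2, 0.49 for lrp2b, 0.07 for tmigd1 and -0.61 for lrp2a. Of the 6 genes, 2 (cubn and amn) were at least 1.5-fold higher and 1 (lrp2a) was at least 1.5-fold lower, while 8.25% of 15985 genes were higher and 15.8% lower by that much. The lrp2a ratio rests on 45 and 19 UMIs. Lysosome-rich enterocytes supplied 18.0% of WT and 19.5% of nod2-/- epithelial UMIs. With that share held at the WT value the log2 ratios were 0.68 for cubn, 0.49 for amn, 0.44 for dab2, 0.39 for lrp2b and -0.03 for tmigd1.

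Other genes of the route from the cell surface to the lysosome were taken from a list of 130, of which 123 were in the files and 100 had at least 20 UMIs in lysosome-rich enterocytes. Of the 100, 11 were at least 2-fold higher in lysosome-rich enterocytes than in every other epithelial class in both libraries, against 2.63% of all 11331 genes. In nod2-/- lysosome-rich enterocytes 9 were at least 1.5-fold higher and 5 at least 1.5-fold lower, where 9.06% and 12.7% of all genes were, so that the share higher was that of the background. Their median log2 ratio was 0.19, against -0.03 over all genes. The ratios of the list are over cells of all depths. Whether they hold within ranges of depth or within clusters was not tested, here or for the groups below.

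Of 15 surface and luminal partners, 1 was at least 1.5-fold higher and 2 were lower in the nod2-/- library (9.06% and 12.7% of all genes), and the median log2 ratio was -0.05. lrpap1, the chaperone that escorts megalin and its relatives through the secretory pathway, was at 234 CPM in WT and 278 CPM in nod2-/- lysosome-rich enterocytes, 3.53-fold and 2.72-fold over the next epithelial class. scarb2a, a lysosomal membrane protein, was 3.0-fold and 2.31-fold over it. clcn5b, an endosomal chloride and proton exchanger, was 2.66-fold and 2.25-fold over it. The lipoprotein receptors scarb1 and ldlra were lower in nod2-/- cells, at log2 ratios of -0.93 and -0.68, and lrp8 (15 and 22 UMIs) was higher, at 1.07. lrp1ab had a log2 ratio of 0.40 with an interval of -0.11 to 0.90. Each of these receptors was higher in another epithelial class. WT and nod2-/- lysosome-rich enterocytes had 0.0511 and 0.0409 of the level there for scarb1, and 0.622 and 0.335 for ldlra. For lrp8 the values were 0.235 and 0.298, and for lrp1ab 0.146 and 0.249. The part of RNA from those classes in these ratios was not tested.

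Of 28 genes of clathrin and its adaptors, 0 were at least 2-fold higher in lysosome-rich enterocytes than in every other epithelial class in both libraries, against 2.63% of all genes. In nod2-/- lysosome-rich enterocytes 0 were at least 1.5-fold higher and 2 were lower (9.06% and 12.7% of all genes), with a median log2 ratio of 0.06. The motor gene myo6a, whose product carries coated vesicles along actin, was 2.5-fold and 1.79-fold over the next epithelial class. bin1b was 1.56-fold and 3.19-fold over it. The clathrin heavy chain gene cltca was at 160 and 229 CPM (log2 ratio 0.52) and the AP-2 subunit gene ap2a1 had a log2 ratio of 0.44. The paralogue myo6b was at 69.2 and 17.6 CPM in WT and nod2-/- cells (log2 ratio -1.98, -2.38 to -1.60), and itsn2a had -0.63 (-1.34 to 0.05). Both were higher in another epithelial class, with levels here of 0.394 and 0.147 of it for myo6b, and 0.105 and 0.106 for itsn2a.

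Of 30 endosome and recycling genes, 2 were at least 1.5-fold higher and 1 was lower (9.06% and 12.7% of all genes), with a median log2 ratio of 0.24. The sorting nexin snx2 was 5.11-fold and 4.05-fold over the next epithelial class, from 117 and 115 UMIs. snx17, which recycles receptors of the megalin family, was 2.24-fold and 2.93-fold over it. The early endosome GTPase rab5c was at 347 and 456 CPM, 2.34-fold and 2.80-fold over it, and rab11a also passed 2-fold. The late endosome gene rab7b (54 and 72 UMIs) and rab25b had log2 ratios of 0.94 and 0.71, and rab11bb (32 and 8 UMIs) and rab4b had -1.48 and -0.47. rab25b, rab11bb and rab4b were higher in another epithelial class, with levels here of 0.506 and 0.744, 0.427 and 0.397, and 0.548 and 0.453 of it.

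Of 27 genes of lysosomal acidification and membrane, 6 were at least 1.5-fold higher and 0 were lower in nod2-/- lysosome-rich enterocytes (9.06% and 12.7% of all genes), with a median log2 ratio of 0.39. These values too are over cells of all depths and were not split by depth. tfeb, a transcription factor of lysosomal genes, was at 340 and 390 CPM, 4.35-fold and 3.03-fold over the next epithelial class. The proton pump subunit gene atp6v1c1b was 3.44-fold and 3.51-fold over it, and the amino acid transporter gene slc36a1 was 2.49-fold and 2.48-fold over it. The pump subunit atp6v0a1a also passed 2-fold. The pump subunit atp6v1f (25 and 39 UMIs) and the cystine exporter ctns had the highest log2 ratios, 1.16 and 0.80, and lamp1b and mcoln1b the lowest, -0.57 and -0.40, with intervals that include 0.

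The genes most like each of the 6 were taken from Pearson's r of log2(CPM + 5) over 46 sums, 1 for each cluster and library, which share library and depth, as a description. Only genes with at least 20 UMIs in lysosome-rich enterocytes of each library could be neighbours. amn was near lrp2b (0.94), the actin-binding gene xirp1 (0.93), dab2 (0.92) and slc22a13a (0.92), and nearest to a gene named SH3TC1 in the name table (ENSDARG00000077330, 0.96). dab2 was near xirp1 (0.93), SH3TC1 (0.92), amn (0.92), cubn (0.92) and lrp2b (0.90). cubn was near SH3TC1 (0.92), dab2 (0.92), snx8a (0.90), si:dkey-194e6.1 (0.90) and xirp1 (0.90). lrp2b was near amn (0.94), SH3TC1 (0.91), dab2 (0.90), xirp1 (0.90) and slc13a3 (0.90).

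tmigd1 shared the neighbour xirp1 (0.86), and its others were si:dkey-28n18.9 (0.88), the bile acid transporter slc10a2 (0.87), foxd2 (0.85) and zgc:123295 (0.84). Its r was close below these for amn (0.82) and dab2 (0.82), and was 0.77 for lrp2b and 0.73 for cubn. lrp2a was unrelated to the rest of the group, with r of 0.20 to cubn and 0.11 to lrp2b. Its neighbours were the Wnt agonist rspo3 (0.88), bmp2b (0.84), adamts3 (0.78), neu3.2 (0.77) and cdon (0.77). Genes of stromal cells with few UMIs in lysosome-rich enterocytes could not appear among them.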

How the data were processed

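The authors deposited UMI counts per gene and cell, made with Cell Ranger 7.0.1 against GRCz11 per the submitters' processing notes, from Ensembl per the methods of the study, with no normalization. All deposited cells were used, because the limits worded in the methods would leave 2252 WT and 2872 nod2-/- cells. Clustering used R 4.3.3 (Seurat 5.3.0, Matrix 1.6.5), after log-normalization and canonical correlation integration, with 1988 variable genes, 50 principal components and a resolution of 0.8. The 6 genes and the pathway list without the class marker pllp, 129 gene IDs in all, were kept out of the variable genes, which would have held 5 of the 6.

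Clusters were named from marker lists. A marker counted at 2-fold or more over the median cluster (10 CPM added to both) and detection in at least 5% of cells, and 3 markers were required for a class, 1 of them at 0.2 or more of the leading gene's fold. This rule was changed after the clusters had been seen, which left the clusters led by krt91 and by cuzd1.1 without a name. Scrublet, in scanpy 1.11.5, made 0 automatic calls in each library and so did not work as a caller. No cell was removed as a doublet.

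UMIs were summed per class and library and divided by the total of the class (CPM) with pandas 2.3.3, numpy 2.4.6 and scipy 1.17.1 under Python 3.11.15, and plotted with matplotlib 3.10.9. Levels carry exact Poisson, shares exact binomial (Clopper-Pearson) and ratios exact conditional binomial intervals at 95%. Ratios between genotypes, and folds of the pathway list over other epithelial classes, are given for genes with at least 20 UMIs over both libraries. Folds over every other class are given for those with 20 in each. lrp2a, with 11 and 6 UMIs in lysosome-rich enterocytes, is given as an exception to both limits. Cells were thinned without replacement to 1000 UMIs, and odds ratios within clusters are those of Mantel and Haenszel. TMM factors of edgeR 4.0.16, other clusterings, cell limits, thinning depths and depth ranges were tried as alternatives. The arithmetic was tested on simulated counts.

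The genes named are the 6 and the 5 nearest to each among genes with at least 20 UMIs in lysosome-rich enterocytes of each library. From each group of the pathway list they are the 3 highest over other epithelial classes and the 2 largest and 2 smallest ratios. The 6 genes and all lists were chosen with earlier results of these data known. Gene length was not corrected for, and levels of different genes are not compared.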

Additional observations from a re-analysis of the deposited data

How the results depend on the processing

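Under 16 alternatives the log2 ratio of nod2-/- to WT in lysosome-rich enterocytes ranged from 0.02 to 0.69 for cubn, 0.33 to 0.65 for amn, 0.17 to 0.42 for dab2, -0.10 to 0.42 for lrp2b and -0.15 to 0.31 for tmigd1. Of 95 such values, lrp2a included, 74 moved by less than the counting interval. That count overstates how stable the values were. It holds all 15 lrp2a values, whose counting interval was wide, from -2.07 to 1.21. It also holds the alternative that left out genes under 20 UMIs, which could not move the other genes. Only cells within the limits of the methods gave 0.020 for cubn, 0.65 for amn, 0.17 for dab2, 0.036 for lrp2b and 0.31 for tmigd1, the last with its sign turned. Taking lysosome-rich cells by 3 of 8 markers, without clustering, gave 0.44 for cubn, 0.33 for amn, 0.27 for dab2 and 0.22 for lrp2b. The mean of single-cell levels gave 0.40 for cubn, 0.29 for dab2, 0.21 for lrp2b and 0.058 for tmigd1, again with its sign turned. Ranges of depth were chosen after seeing the data. Only cells of 2000 to 8000 UMIs gave 0.046 for cubn, 0.21 for dab2, -0.10 for lrp2b, whose sign turned, and -0.15 for tmigd1, and 3 ranges weighted equally gave 0.23 for cubn, 0.22 for dab2, 0.13 for lrp2b and 0.15 for tmigd1. With the share of lysosome-rich UMIs held at the WT value the epithelial log2 ratios were 0.68 for cubn, 0.44 for dab2, 0.39 for lrp2b and -0.028 for tmigd1. The causes of these shifts were not tested.

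The number of the 5 genes at least 1.5-fold higher in nod2-/- cells, 1 as reported, was 0 without clustering, for the mean of single-cell levels and in cells of 2000 to 8000 UMIs. Within the limits of the methods and with the 3 ranges weighted equally the 1 gene was amn, not cubn. The number at least 5-fold over every other class, 2 as reported, was 5 at resolution 0.4, without integration, within the limits of the methods, without clustering and for the mean of single-cell levels, and 1 at resolution 1.2. In 132 folds over the next class 82 moved by less than the counting interval and none turned. The median odds ratio of co-detection was 10.2 in WT and 5.80 in nod2-/- cells without thinning, and 1.57 in nod2-/- cells thinned to 500 UMIs.

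No paired analysis was possible because each genotype is 1 library. The single library per genotype limits every difference between genotypes, since pooled fish cannot be told apart and intervals cover counting error only. Median depth of lysosome-rich enterocytes was 5477 UMIs in WT and 3026 in nod2-/- cells, so shares of cells before thinning are not comparable. Counts of lrp2a, 11 and 6 UMIs in the class, allow no direction.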

Other observations

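Outside the named classes a few of the genes were counted in clusters without a name. dab2 had 3 UMIs in 13 WT cells (114 CPM) and 27 UMIs in 59 nod2-/- cells (210 CPM) of the cluster led by fabp11a, krt94 and krt15, spread over 3 and 16 cells with at most 5 UMIs in a cell. cubn and amn had 0 UMIs in both libraries of that cluster. tmigd1 had 53 UMIs in 34 nod2-/- cells (254 CPM) of the cluster led by cuzd1.1, of which 33 were in 1 cell. All 28 cubn UMIs of the cluster led by si:ch73-343g19.4 were in 1 WT cell. These values enter no comparison between classes.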
